A study of Mus musculus with 2 samples.

Results

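The Gimap genes encode GTPases of the immunity-associated protein family, and the 8 members examined here are Gimap1, Gimap3, Gimap4, Gimap5, Gimap6, Gimap7, Gimap8 and Gimap9. They were taken by gene name, 8 of 23296 genes with a symbol in the expression tables. No measured value entered this rule, but earlier results of these data were known. All 8 genes were found, with 14 RefSeq transcripts between them. A gene's level is that of its most abundant transcript, judged by the mean of both libraries. The study sequenced polyadenylated RNA of the whole thymus from wild-type (WT) mice and from miR-146a transgenic (Tg) mice, which overexpress the microRNA miR-146a systemically, to look for molecules behind an altered T cell development. Both groups were Balb/c mice of 5 to 6 weeks of age. Each group was 1 library made from the pooled thymuses of 1 male and 1 female, and the promoter of the transgene is not given in the sources used here. The WT mice descended from purchased Balb/c stock and not from the Tg colony, so genotype and colony cannot be told apart. With 1 library per genotype there is no measure of the spread between animals and no test between genotypes was possible, so every difference below is a difference between these libraries.

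Gimap proteins bind GTP through a domain that resembles that of the septins, and they are found mainly in lymphocytes. Several members act in the survival of T cells, and their genes sit side by side in the genome. Expression of Gimap3 and Gimap4 is known to increase as thymocytes pass from the CD4+CD8+ double-positive stage to the single-positive stages. The study placed Gimap3 and Gimap4 among its genes of positive selection and examined Gimap4 as a target of miR-146a, so the seed of the microRNA and its match in Gimap4 are shown first. The mature microRNA is given as RNA from RefSeq (chr11:43374435-43374456, minus strand, GRCm38.p6), with its seed at bases 2 to 8 in capitals. The Gimap4 stretch is given as DNA from GENCODE M21 (chr6:48691722-48691751, plus strand, GRCm38), with the 8-base seed match in capitals.
miR-146a-5p: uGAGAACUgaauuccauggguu
Gimap4: agatagcatacAGTTCTCAatggacatcag

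The match lies in exon 3 of 3 of Gimap4 transcript NM_174990, at bases 434 to 441 of a 3′ UTR of 761 bases counted after the stop codon. The 3′ UTRs of the 8 genes were searched on the sense strand for the 8-base match AGTTCTCA, for the 7-base matches AGTTCTC and GTTCTCA and for the 6-base match GTTCTC, which lie within one another. The 8-base match was in 1 of the 8 genes, Gimap4. The 7-base matches were found in no further member, and the 6-base match was also present once in Gimap5. Among 10227 genes at a mean of at least 1 RPKM with an annotated 3′ UTR, 3.86% held the 8-base match and 30.0% the 6-base match. Among the 2663 of these whose 3′ UTR was within the length range of the Gimap genes, the shares were 1.24% and 14.3%. The study chose Gimap4 because it was both lower in Tg thymus and predicted by software to be a miR-146a target. The match in Gimap4 is therefore not independent of that choice. A match is a description of the letters, and whether any member is acted on through one was not tested here. The study reported that miR-146a lowered a luciferase reporter carrying the Gimap4 3′ UTR in a transfected cell line. It also reported less Gimap4 protein in Tg thymus.

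Every member carried the coding stretch of the P-loop, the loop that holds the phosphates of GTP, which was searched as a glycine, any 4 residues, a glycine, a lysine and a serine or threonine. The 8 genes held 10 such stretches, since Gimap8 carries 3 copies. They are shown because they carry what the family shares, and the capitals mark the codons of the closing glycine, lysine and serine or threonine (coding strand, GRCm38, GENCODE M21).
Gimap8, copy 1 (chr6:48650256-48650279, plus strand): gggaaacagggcgcaGGCAAAAGT
Gimap8, copy 2 (chr6:48656119-48656142, plus strand): gggaagcgtggtgttGGGAAAAGT
Gimap8, copy 3 (chr6:48658746-48658769, plus strand): ggaaggagtggggctGGAAAGAGT
Gimap9 (chr6:48677523-48677546, plus strand): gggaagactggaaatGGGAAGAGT
Gimap4 (chr6:48690421-48690444, plus strand): ggaaaaactggagcaGGAAAGAGT
Gimap6 (chr6:48702750-48702773, minus strand): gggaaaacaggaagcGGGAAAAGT
Gimap7 (chr6:48723524-48723547, plus strand): gggaaaacaggaagtGGAAAGAGC
Gimap1 (chr6:48742552-48742575, plus strand): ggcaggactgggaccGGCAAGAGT
Gimap5 (chr6:48752594-48752617, plus strand): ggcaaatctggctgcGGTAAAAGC
Gimap3 (chr6:48765887-48765910, minus strand): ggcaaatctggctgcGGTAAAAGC
The stretches of Gimap3 and Gimap5 are the same in all 24 bases.

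Over the whole coding sequence Gimap3 and Gimap5 were also the closest pair, with 817 identical bases, or 88.1% of the longer sequence of the pair. By this measure Gimap7 and Gimap9 came next with 65.0%, and the other pairs without Gimap8 shared 50.8% to 57.8%. Pairs with Gimap8, whose coding sequence of 2067 bases is over 2-fold longer than any other, shared 32.3% to 35.4%. The authors counted only uniquely mapped reads, and the share of each transcript that recurs in transcripts of other genes was therefore measured. Of the 50-base stretches of the annotated transcripts, 9.83% in Gimap3, 15.1% in Gimap5, 12.8% in Gimap1 and 2.62% in Gimap7 recurred in a transcript of another gene, while none did in Gimap4, Gimap6, Gimap8 and Gimap9. The shares of 100-base stretches were lower, at 2.004% in Gimap3, 5.18% in Gimap5, 7.10% in Gimap1 and 0 in Gimap7. Gimap3 and Gimap5 shared stretches of both lengths with each other. Without the overlapping annotated gene Gm28053 the shares of 50-base stretches were 9.98% in Gimap5, 2.49% in Gimap1 and 0 in Gimap7. Those of 100-base stretches were then 2.21% in Gimap5 and 0 in Gimap1. Gm28053 (chromosome 6, 48718607 to 48752644) overlaps Gimap1, Gimap5 and Gimap7 on their own strand and has no transcript in the tables. The reads were mapped to the genome, so a stretch shared with Gm28053 need not lie at a second genomic place. Gimap1 also overlaps Gimap1os on the opposite strand by 2391 bases. The strand setting of the counting is not given in the sources used here, so reads of this pair cannot be told apart.

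The libraries were of like depth. Levels are in RPKM, the unit of the deposited values, which scales reads by transcript length and by mapped reads of the library. The values equalled whole numbers of reads at 29045338 (WT) and 30793392 (Tg) mapped reads, which are 14522669 and 15396696 read pairs, here called fragments. All 95% intervals are exact intervals on fragments and leave out variation between animals, as only counting error enters them. The tables list no value at 0, and their lowest step equals 1 read, an odd number where nearly all other values were even, so this step was read as no fragment. Mir146, which encodes the microRNA, stood at the step of 1 read in both libraries (0.5297 and 0.4996 RPKM), and oligo(dT) selection does not retain mature microRNA, so the transgene was not checked. The T lineage genes Cd3e, Cd3d, Cd3g, Lck and Ptprc were high in both libraries, with summed levels of 2179 and 1762 RPKM, as a thymus sample should have.

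The summed level of the 8 genes was 748 RPKM in WT thymus and 509 RPKM in Tg thymus, and the Tg/WT ratio was 0.681. Of the 8 genes, 5 were over 1.5-fold lower in Tg thymus, 3 were within 1.5-fold and 0 were higher. Of the 5, Gimap3 and Gimap4 were picked by the study as lower in these same libraries. The counts here and at 2-fold below are therefore not independent evidence. Over all 11095 genes at a mean of at least 1 RPKM, 11.0% were over 1.5-fold lower and 7.74% over 1.5-fold higher. Among the 3618 genes whose mean lay within the range of the Gimap genes (19.4 to 248 RPKM), 7.49% were over 1.5-fold lower and 4.86% higher. A ratio below 1 by any amount was found in 7 of the 8 Gimap genes (Gimap9 among them, which stood above 1 after the libraries were rescaled to the same sum), against 46.5% of all genes and 44.4% of those in the same range. The median log2(Tg/WT) was -0.67 for the Gimap genes and 0.03 for all genes. When both libraries were rescaled to the same sum of RPKM, which moves every log2 value up by 0.12 and the median of all genes to 0.15, 3 Gimap genes were over 1.5-fold lower, and the shares over all genes turned to 7.93% lower and 11.8% higher. Genes over 2-fold lower numbered 3 of the 8 Gimap genes, against 3.84% of all genes and 1.60% of those in the same range.

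Gimap4, which in mice speeds the death of T cells after an apoptotic signal, stood at 65.8 RPKM in WT and 24.6 RPKM in Tg thymus. Its Tg/WT ratio, 0.374 (95% interval 0.342 to 0.409), rests on 1730 WT and 686 Tg fragments and was the lowest of the family. Gimap4 held the third place among the 8 levels in WT and the sixth in Tg thymus, and its share of the summed level was 8.80% and 4.84%.

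Gimap3 and Gimap5 encode close relatives, and in mice Gimap5 is needed for the survival of peripheral T cells. Gimap3 stood at 52.0 RPKM in WT and 24.9 RPKM in Tg thymus, with a ratio of 0.479 (0.440 to 0.522) from 1619 WT and 823 Tg fragments. Gimap5 had the lowest WT level of the family, 21.8 RPKM, and 17.0 RPKM in Tg thymus. Its ratio was 0.779 (0.691 to 0.878) from 615 WT and 508 Tg fragments, so it was lower but within 1.5-fold. The intervals of this pair do not overlap despite the likeness of the coding sequences.

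Gimap7 and Gimap9, the next closest pair by share of the longer coding sequence, also stood apart. Gimap7, whose human counterpart promotes GTP hydrolysis by another member of the family, stood at 37.0 RPKM in WT and 15.7 RPKM in Tg thymus. Its ratio was 0.424 (0.369 to 0.486) from 681 WT and 306 Tg fragments, and its interval overlapped that of Gimap4. Gimap9 stood at 148 RPKM in WT and 141 RPKM in Tg thymus. Its ratio was 0.952 (0.904 to 1.001) from 2966 WT and 2992 Tg fragments, so no difference was detectable at this depth. Gimap7 was the lowest member in the Tg library, and its interval there overlapped that of Gimap5.

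Gimap6, whose protein binds a member of the ATG8 family of autophagy proteins, was the most abundant member in both libraries. Its level was 305 RPKM in WT and 191 RPKM in Tg thymus, with a ratio of 0.627 (0.604 to 0.650) from 7151 WT and 4750 Tg fragments. Gimap6 thereby made up 40.9% of the summed WT level and 47.8% of the difference in summed level between the libraries. Without Gimap6 the summed levels were 442 and 318 RPKM and their ratio 0.718. Gimap8, which carries 3 GTP-binding domains, stood at 62.9 RPKM in WT and 39.8 RPKM in Tg thymus, with a ratio of 0.633 (0.599 to 0.668) from 3337 WT and 2238 Tg fragments. Gimap6 and Gimap8 passed 1.5-fold only narrowly, at 1.60-fold and 1.58-fold lower, and were within it after rescaling to the same sum of RPKM.

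Gimap1, which mice need to keep mature T and B cells, was level between the libraries. Its level was 55.0 RPKM in WT and 55.1 RPKM in Tg thymus, with a ratio of 1.002 (0.925 to 1.085) from 1202 WT and 1277 Tg fragments. Gimap4 and Gimap8 lay above Gimap1 in WT thymus and below it in Tg thymus, so Gimap1 held the fifth place in WT and the third in Tg, and its share of the summed level was 7.36% and 10.8%. Across the family 6 of the 8 intervals lay wholly below 1, those of Gimap1 and Gimap9 being the exceptions.

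**Figure D1:**
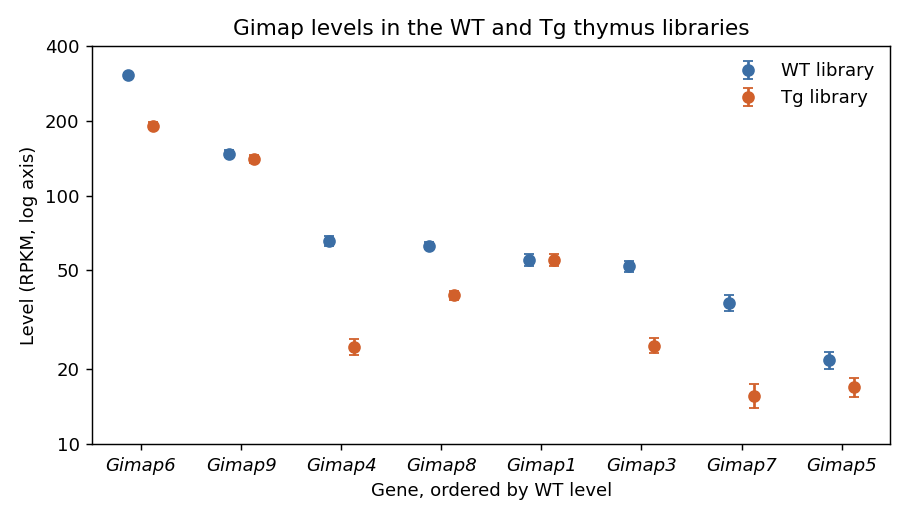
Level of each Gimap gene in the WT (blue) and Tg (orange) thymus libraries, in RPKM on a log axis, with genes ordered by WT level. Each point is 1 library and bars are 95% counting intervals. Gimap4, Gimap3 and Gimap7 stand over 2-fold lower in Tg, while the points of Gimap9 and Gimap1 nearly coincide.

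The levels spanned 14.0-fold in the WT library, from Gimap6 to Gimap5, and 12.2-fold in the Tg library, from Gimap6 to Gimap7. In WT thymus the order was Gimap6, Gimap9, Gimap4, Gimap8, Gimap1, Gimap3, Gimap7 and Gimap5, with overlapping counting intervals for the neighbours Gimap4 and Gimap8 and for Gimap1 and Gimap3. In Tg thymus it was Gimap6, Gimap9, Gimap1, Gimap8, Gimap3, Gimap4, Gimap5 and Gimap7, with overlapping intervals for Gimap3 and Gimap4 and for Gimap5 and Gimap7. Gimap6 and Gimap9 kept the first places, while Gimap4 and Gimap1 changed theirs the most. Among all measured genes the WT level of Gimap6 exceeded 98.4% and that of Gimap5 69.0%, so the family ranged from moderate to very high expression in the thymus.

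The 8 genes lie on chromosome 6 of GRCm38 between 48647186 and 48770851, a stretch of 124 kb. From its start the order is Gimap8, Gimap9, Gimap4, Gimap6, Gimap7, Gimap1, Gimap5 and Gimap3, with Gimap6 and Gimap3 on the minus strand and the others on the plus strand. Members over 1.5-fold lower were not confined to one end of the cluster, and Gimap4, Gimap6 and Gimap7 lie in a row. Gimap9, at a ratio of 0.952, lies between Gimap8 (0.633) and Gimap4 (0.374), and Gimap1 (1.002) between Gimap7 (0.424) and Gimap5 (0.779). Both strands held members over 1.5-fold lower.

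Outside the cluster, the 5 nearest measured genes on each side were Krba1, Atp6v0e2, Lrrc61, Rarres2 and Zfp775 before it and Tmem176b, Tmem176a, Malsu1, Igf2bp3 and Tra2a after it. Of these 10 neighbours 1 was over 1.5-fold lower, near the 11.0% over all genes, and 0 were higher. Their median log2(Tg/WT) was 0.02. The lower one was Malsu1, a factor of the mitochondrial ribosome, with 22.9 and 14.9 RPKM and a ratio of 0.651 (95% interval up to 0.716). Tra2a, a splicing factor and the most abundant neighbour, had 103 and 104 RPKM. Atp6v0e2, Rarres2, Zfp775 and Igf2bp3 were below 2 RPKM in both libraries, and their intervals are wide.

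**Figure D2:**
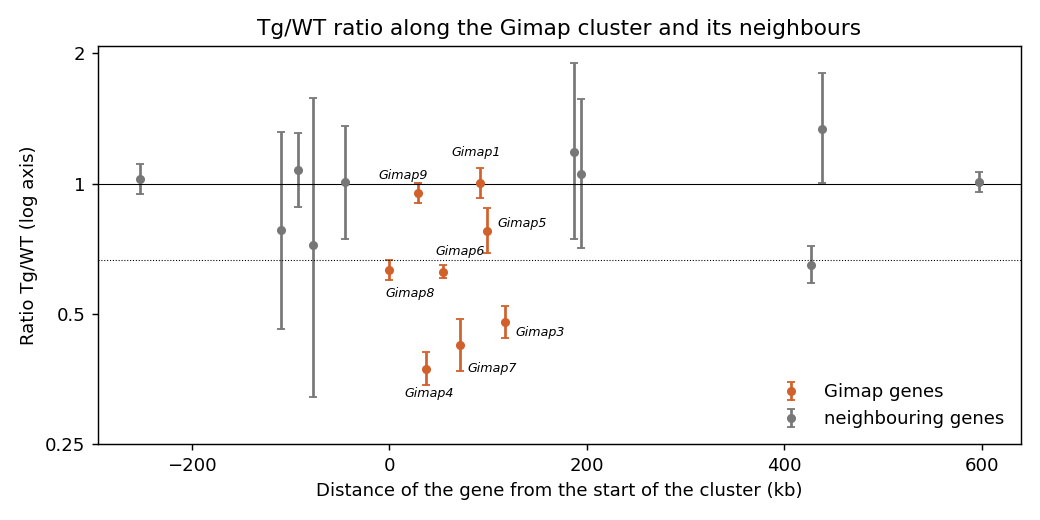
Ratio Tg/WT (log axis) of the 8 Gimap genes (orange) and 10 neighbouring genes (grey) against the distance of each gene from the start of the cluster in kb. Bars are 95% counting intervals, the solid line is equal level and the dotted line is 1.5-fold lower. Gimap ratios run from 0.374 to 1.002, and 1 neighbour, Malsu1, lies just below the dotted line.

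The tables list 5 transcripts of Gimap4, 2 of Gimap1, 2 of Gimap8 and 1 of each other member. The transcripts of a gene share exons. The pair of Gimap1 transcripts differed by 6 bases in recovered length and held 1202 and 1160 fragments in the WT library, so most fragments counted for both, and isoforms are not independent measurements. Their ratios were 1.002 and 1.005.

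All 5 Gimap4 transcripts were over 2-fold lower in Tg thymus. NM_174990, the most abundant, has 3 exons and a ratio of 0.374. NM_001243199 (49.1 and 19.0 RPKM) and NM_001243201 (36.8 and 14.3 RPKM) had ratios of 0.387 and 0.387. NM_175048, a transcript of 5 exons with 36.8 and 9.91 RPKM, had the lowest ratio, 0.270 (0.223 to 0.325), from 514 WT and 147 Tg fragments, and its interval did not overlap that of NM_174990. The recovered length of NM_175048, 963 bases, differs from the 775 bases annotated in GENCODE. In the GENCODE annotation 4 of the 5 transcripts hold the miR-146a seed match printed above. The exception is NM_001243200, which ends at 48691378, before the match at 48691733 to 48691740. Its levels were 60.8 and 21.7 RPKM, and its ratio of 0.356 (0.306 to 0.414) lay within the range of the others. As these transcripts share fragments over their common exons, transcripts with and without the match cannot be told apart by their counts.

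The 2 transcripts of Gimap8 lay on either side of 1.5-fold. NM_001077410 was 1.58-fold lower and NM_212486, with 58.2 and 39.3 RPKM, was 1.48-fold lower (ratio of 0.675, 0.639 to 0.714). NM_001077410 held 256 more fragments than NM_212486 in the WT library and 32 more in the Tg library. Its recovered length of 3654 bases exceeds the 2579 bases of the GENCODE transcript, so the transcript model behind the deposited value differed from that annotation.

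**Figure D3:**
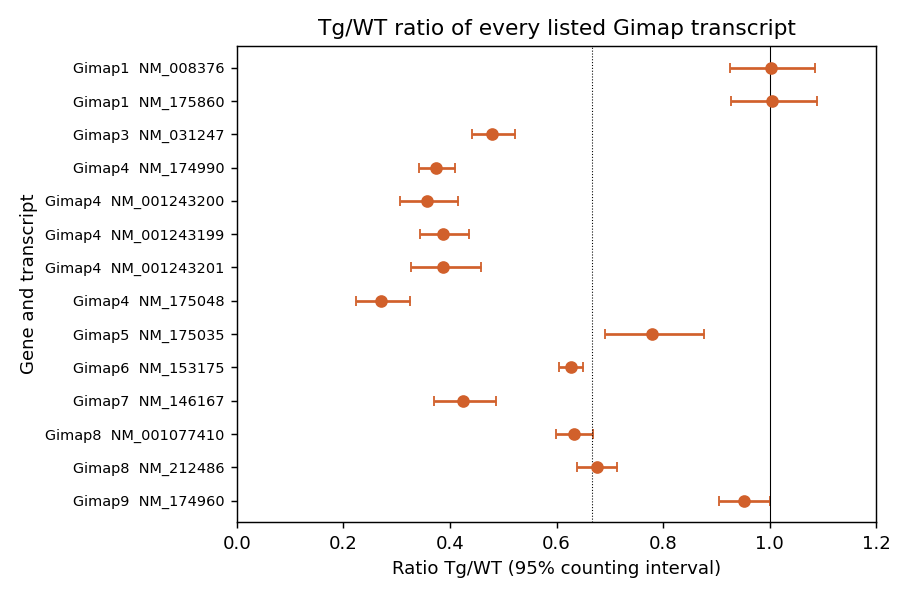
Ratio Tg/WT of all 14 listed Gimap transcripts with 95% counting intervals. The solid line is equal level and the dotted line is 1.5-fold lower. The 5 Gimap4 transcripts lie between 0.270 and 0.387, those of Gimap1 at 1, and the 2 Gimap8 transcripts on either side of the dotted line.

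Genes of T cell survival and apoptosis were set beside the family, because Gimap proteins have been reported to act with members of the Bcl2 family and because Gimap4 has been tied to signalling of the IL-7 receptor. Il7r, Gimap3 and Gimap4 were picked by the study from these same libraries, so their shared direction is not independent evidence. Of 16 listed genes 15 were measured, of which 2 were over 1.5-fold lower, 0 were higher and 13 were within 1.5-fold, with a median log2(Tg/WT) of -0.19. This count is near the share over all genes, 11.0% lower. The lower genes were Il7r, the IL-7 receptor α chain, at 51.9 and 21.7 RPKM, and the anti-apoptotic gene Bcl2, at 12.2 and 7.31 RPKM. For their proteins, the study reported lower levels in CD8 single-positive thymocytes of Tg mice. It found no such change in CD4 single-positive thymocytes. The ratio of Il7r, 0.418 (0.389 to 0.450), overlapped those of Gimap4, Gimap7 and Gimap3 in its interval. Bax, an inducer of apoptosis, had 68.5 and 50.8 RPKM, and Bcl2l1, which protects cells, 97.2 and 104 RPKM. The most abundant of the list were Il2rg, the shared γ chain of cytokine receptors, at 317 and 278 RPKM, Mcl1 at 189.5 and 141 RPKM and Jak1 at 146 and 121 RPKM. Each of the last 5 genes was within 1.5-fold.

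Of 20 genes of mature single-positive thymocytes, all measured, 14 were over 1.5-fold lower, 0 were higher and 6 were within 1.5-fold, with a median log2(Tg/WT) of -0.91, against 11.0% lower over all genes. The 14 include Il7r, counted above, and Cd53, a tetraspanin (105.6 and 34.0 RPKM), which the study also picked from these libraries. The list itself was chosen with earlier results of these data known, so the count is not independent evidence. The lowest ratios were those of the membrane protein genes Ms4a4b (198 and 29.2 RPKM, ratio 0.147) and Ms4a6b (128 and 29.3 RPKM, 0.228), both below every Gimap gene. Ratios of 0.322 to 0.358 were those of Cd53, the cytokine receptor gene Il6ra (6.96 and 2.47 RPKM) and Klf2, a regulator of S1pr1 (22.8 and 8.15 RPKM). The surface protein gene Cd52 (525 and 231 RPKM, 0.440), the integrin gene Itgb7 (36.3 and 17.2 RPKM, 0.474), the egress receptor S1pr1 (13.6 and 6.52 RPKM, 0.480) and the homing receptor Ccr7 (42.6 and 22.2 RPKM, 0.520) followed. Slfn2 (124 and 67.4 RPKM, 0.546), the activation marker Cd69 (95.8 and 53.9 RPKM, 0.563) and Emb (68.5 and 41.1 RPKM, 0.600) lay nearer to 1.5-fold, as did Gimap6 and Gimap8. In the study's scheme thymocytes gain CD69 during selection and mature ones lack it. Cd69 is thus counted in this list without being a marker of the mature stage. Among the most abundant genes of the list, Tcf7, a transcription factor of most thymocytes, had 1020.0 and 1370.2 RPKM and Limd2 217 and 179 RPKM, both within 1.5-fold.

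Of 15 genes of double-positive thymocytes 0 were over 1.5-fold lower, 2 were higher and 13 were within 1.5-fold, with a median of 0.19, against 7.74% higher over all genes. The higher ones were Ptcra, the pre-T cell receptor α chain (10.7 and 17.3 RPKM, ratio 1.62), and Arpp21 (24.4 and 39.5 RPKM, 1.62). Whether the listed genes are particular to the double-positive stage, Ptcra among them, was not tested here. The most abundant were the coreceptor genes Cd8b1 (945 and 1063 RPKM), Cd4 (414 and 443 RPKM) and Cd8a (369 and 427 RPKM) and the recombinase gene Rag1 (413 and 514 RPKM), all within 1.5-fold. By flow cytometry the study reported a mildly higher frequency of double-positive thymocytes in Tg mice. It also reported lower frequencies and counts of CD4 and CD8 single-positive thymocytes. Whether the animals pooled for RNA were among those mice is not given in the sources used here. In RNA of whole thymus, fewer cells of a type and less RNA per cell cannot be told apart. The part of cell composition in the Gimap ratios was not tested.

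Markers of some other cells in the thymus also differed between the libraries. Over all measured genes 11.0% were over 1.5-fold lower, the share to set beside the counts below. Of 6 genes of NK and innate lymphoid cells 5 were measured and 4 were over 1.5-fold lower, with summed levels of 152 and 103 RPKM. Gzma, a granzyme gene, made up much of both sums at 77.0 and 80.6 RPKM, and without it they were 75.1 and 22.5 RPKM, a ratio of 0.300. The lowest ratio was that of Klrd1, a receptor chain of NK cells, at 15.3 and 2.62 RPKM (0.172). Of 6 B cell genes 4 were measured and 1 was lower, with summed levels of 29.4 and 21.6 RPKM. All 4 measured of 5 neutrophil genes were lower (summed levels 529 and 132 RPKM), as were all 3 measured of 5 erythroid genes (111 and 53.7 RPKM), and 1 of 2 measured of the 5 macrophage and dendritic cell genes in the tables (59.6 and 36.9 RPKM). Endothelial genes had summed levels of 16.7 and 17.1 RPKM, almost all from Pecam1, and Emcn stood at the step of 1 read in both libraries. Epithelial genes summed to 5.63 and 6.53 RPKM and fibroblast genes to 0.284 and 0.284 RPKM. The part of these cells in the Gimap ratios was not tested.

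**Figure D4:**
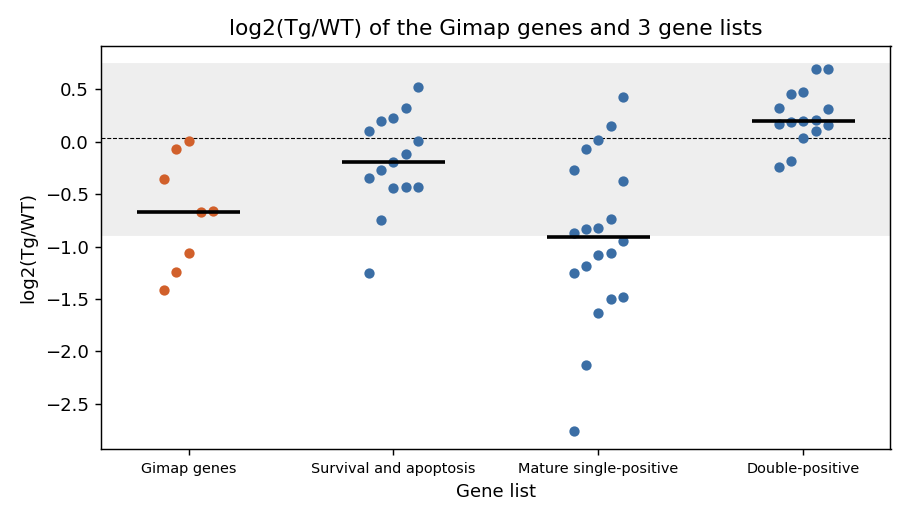
log2(Tg/WT) of the Gimap genes (orange) and of measured genes of 3 lists (blue), with black bars for the medians. The dashed line is the median of all 11095 measured genes (0.03) and the grey band holds their central 90%. The Gimap median of -0.67 lies between those of the survival and apoptosis list (-0.19) and of the mature single-positive list (-0.91), and the double-positive median is 0.19.

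The genes outside the family closest to Gimap4 in level were ranked by their distance from it on the log2 scale over the 2 libraries, which is too few to define a pattern. They were Ctsw, cathepsin W of cytotoxic lymphocytes, with 74.4 and 24.9 RPKM (distance of 0.18), Hcst, an adaptor of the NKG2D receptor, with 56.6 and 24.0 RPKM (0.22), and Samd9l, an interferon-induced gene, with 67.5 and 30.8 RPKM (0.32). Their ratios were 0.334, 0.424 and 0.456.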

How the data were processed

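Total RNA of pooled thymuses was selected with oligo(dT) beads and sequenced on an Illumina HiSeq instrument. Per the study's methods, reads were aligned to the genome of the mouse with HotHap2, as spelled there, and uniquely mapped ones were counted (version and strandedness: not given in the sources used here). The deposited tables hold the authors' RPKM of 30533 RefSeq transcripts, whereas the methods name a unit per fragment. The submitters' processing notes name build mm10, which is GRCm38. Symbols were assigned to 98.9% of the transcripts from RefSeq (GRCm38.p6) and GENCODE M21.

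Each ratio divides the Tg value by the WT value, without a pseudocount. Whole reads and transcript lengths were recovered from the RPKM values within a relative tolerance of 1e-12, taking the length nearest the annotated one that gave even reads. Where the smallest length giving whole reads, with no demand for even reads, equalled the annotated one, 2374 of 2375 read counts above 1 were even, and each pair of reads was therefore treated as 1 fragment. Intervals cover counting error only; those of ratios are exact binomial and those of levels exact Poisson intervals, at 95%. The recovery was tested on simulated data built from the annotated lengths, so transcripts whose length differs from the annotation were not covered by that test. A count test was not run, since it would compare 2 libraries and not the genotypes. Genes at a mean of at least 1 RPKM formed the background.

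The members and lists were chosen with earlier results of these data known. Named genes were all Gimap genes and transcripts, the 5 nearest measured genes on each side, the 3 genes nearest to Gimap4 in level, members of the 3 gene lists past 1.5-fold or among the 4 highest means of a list, Bax and Mir146. Marker genes were named after their values were seen, and some list members are not reported by name here. Coding sequences were compared in place of proteins with Biopython 1.88, using global alignment. Python 3.11.15, numpy 2.4.6, pandas 2.3.3, scipy 1.17.1 and matplotlib 3.10.9 were used. The alternatives were other floors, pseudocounts, scalings, gene values, a trend over transcript length and a 2-fold limit. Protein blots, reporter assays and flow cytometry of the study are mentioned but did not enter the values here.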

Additional observations from a re-analysis of the deposited data

How the results depend on the processing

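Most alternatives left the Gimap ratios near the main values, but rescaling to the same sum lowered the count past 1.5-fold. Without a floor, with a mean of at least 5 RPKM, with pseudocounts of 1 or 0.1, with median centring, with the mean of a gene's transcripts, with the transcript of the highest WT level and with the trend over transcript length subtracted, 5 of the 8 genes were over 1.5-fold lower, with a median log2(Tg/WT) between -0.70 and -0.64 and a summed ratio between 0.666 and 0.688. Upper quartile scaling gave a summed ratio of 0.664, and the sum of all transcripts, which counts shared fragments more than once, gave 0.639. Rescaling both libraries to the same sum gave 3 genes over 1.5-fold lower, a median log2(Tg/WT) of -0.55 and a summed ratio of 0.740, with Gimap6 at 0.681 and Gimap8 at 0.688. At a limit of 2-fold 3 genes were lower. Of 88 values of single genes under these alternatives 84 stayed within their counting interval, 4 moved beyond it and 0 of the ratios past 1.5-fold changed direction. The floors could not change a ratio, as every Gimap mean exceeded 5 RPKM, and the transcript of the highest WT level gave the same values. Genes with 1 listed transcript cannot change under sums or means of transcripts. Part of the 84 was thus fixed in advance. Gimap4 ranged from 0.359 to 0.407, Gimap7 from 0.413 to 0.461 and Gimap3 from 0.463 to 0.521. The ratios of Gimap1 (0.977 to 1.09) and Gimap9 (0.927 to 1.03) crossed 1, so no direction is given for them. No paired analysis was possible because there is 1 library per genotype, and for the same reason no library could be left out. The counting intervals hold no variation between animals, and PCR copies are not independent molecules.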
